A study of Schmidtea mediterranea with 60 samples.

Results

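pc2 (dd_Smed_v6_1566_0_1) and chat (dd_Smed_v6_6208_0_1) are 2 neuronal transcripts of the planarian Schmidtea mediterranea, taken here by their identifiers from the 28742 transcripts of the dd_Smed_v6 assembly. pc2 encodes a prohormone convertase, a protease of the secretory pathway that cuts neuropeptide precursors into active peptides. chat encodes choline acetyltransferase, the enzyme that makes the transmitter acetylcholine, and marks cholinergic neurons. The planarian nervous system consists of a brain in the head and a pair of ventral nerve cords joined by commissures, and both transcripts are commonly used as labels for it in this species. A piece cut from the tail has no brain but keeps part of the cords, so the RNA of such a piece carries both transcripts from the start.

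The sequenced RNA came from wounds facing anteriorly on post-pharyngeal (tail) pieces of the asexual CIW4 strain. All animals had been fed double-stranded RNA 4 times before the cut. The fed RNA matched either unc-22, a nematode gene with no planarian counterpart that served as the control RNAi, or bmp4, a secreted BMP-family signal that patterns the dorsal-ventral axis. Wounds were taken at 0, 3, 6, 16, 24 or 48 h post-amputation (hpa) in 5 replicates per group, each a pool of 5 wounds, giving 12 groups and 60 libraries. The labels do not say whether the pools of a group came from separate RNAi experiments. The p-values weigh differences against the spread among these pools and may not cover variation between RNAi experiments. The wound tissue held many cell types, so more neurons and more RNA per neuron cannot be told apart in any value below.

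Library totals were 5.92 M to 23.9 M counts with a median of 17.3 M, and all but the smallest (replicate 4 at 3 hpa labelled bmp4 RNAi) held at least 12.6 M. The bmp4 transcript (dd_Smed_v6_17402_0_1) did not follow the label in every library. At 6 and 48 hpa all 5 bmp4 RNAi-labelled libraries lay below every control library of the same time, but at 0 hpa all 5 lay above, with 5.64 to 8.80 CPM (counts relative to the size of the library) against 2.66 to 3.25 in controls. Of the 30 bmp4 RNAi-labelled libraries, 15 were below and 13 above all controls of their time. The libraries labelled bmp4 RNAi are therefore named by their label throughout, and the main differences are also given without those 13. The share of counts on 8 mitochondrial transcripts was 0.195% to 0.711%, and its ranges in the 2 conditions overlapped at every time.

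Both transcripts were deeply covered in every library. pc2 had 1428 to 5517 counts and chat had 760 to 2903. On the scale of CPM after TMM scaling (trimmed mean of M-values, which corrects for library composition), pc2 ranged over 1.82-fold from the lowest to the highest of the 60 libraries, and chat over 1.96-fold. The 12 group means spanned 193 to 246 CPM for pc2 and 76.0 to 116 CPM for chat. Transcript lengths were not used here, so the level of one transcript is not set against the level of the other. The highest group mean was 1.27-fold the lowest for pc2 and 1.52-fold for chat. The coefficient of variation of the replicate pools within a group was 3.12% to 20.4% for pc2 and 5.83% to 12.6% for chat.

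**Figure D1:**
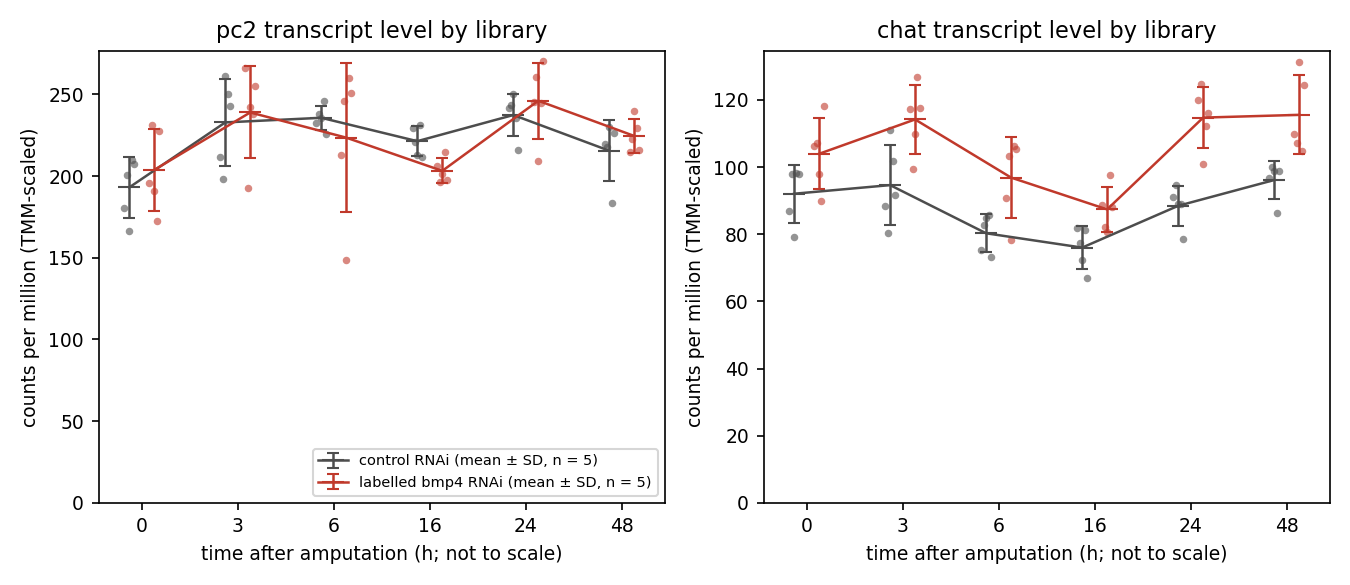
TMM-scaled CPM of pc2 (left) and chat (right) at each time after amputation, with 1 point per library and the mean ± SD of the 5 replicates for control RNAi (grey) and bmp4 RNAi-labelled libraries (red). The pc2 groups overlap at each time, while the 5 chat points labelled bmp4 RNAi lie above all 5 control points at 24 and 48 hpa.

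chat was higher in the bmp4 RNAi-labelled libraries than in controls. Averaged over the 6 times, the difference was 0.26 ± 0.034 (SE) on the log2 scale, a level 19.7% higher, with an adjusted p of 2.1e-09 in edgeR's quasi-likelihood test over the 18510 transcripts tested (Benjamini-Hochberg adjustment, called under 0.05). The same average was called for 22.1% of all transcripts in the higher direction. The group mean of chat was higher in the bmp4 RNAi-labelled libraries at all 6 times, a pattern that 13.6% of all tested transcripts shared. The average over the 5 later times, with no 0 hpa library, was 0.28 ± 0.037 (adjusted p = 5.0e-09, with 21.4% of transcripts called higher), and without the libraries whose bmp4 stood above the controls it was 0.27 ± 0.046 (adjusted p = 5.3e-06, edgeR, with 15.1% called higher). pc2 showed no such difference: its average was 0.0044 ± 0.037 on the log2 scale (adjusted p = 0.937), with a 95% interval from -0.070 to 0.079, and over the later times without those libraries it was -0.012 ± 0.052 (adjusted p = 0.897).

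At 24 hpa chat differed most. The 5 control libraries held 91.0, 94.6, 89.1, 88.9 and 78.7 CPM (replicates 1 to 5). Those labelled bmp4 RNAi held 119.9, 125, 101, 112 and 116 CPM. The groups did not overlap, as for 6.11% of all transcripts in this direction at this time. The fitted difference was 0.37 ± 0.082 on the log2 scale (adjusted p = 0.00049, edgeR), where 10.2% of all transcripts were called higher. The exact permutation test, two-sided and on log2(CPM + 1) of 5 libraries against 5, gave p = 0.00794, which is the smallest p it can give, and 0.0476 after adjustment over 12 tests (2 transcripts at 6 times).

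At 48 hpa control libraries held 96.6, 99.9, 98.9, 86.3 and 98.9 CPM of chat. The bmp4 RNAi-labelled libraries held 109.9, 107, 131, 105 and 124 CPM, again all above the controls, as for 10.1% of transcripts. The difference was 0.27 ± 0.082 on the log2 scale (adjusted p = 0.00815, edgeR, with 17.3% of transcripts called higher). The exact permutation test gave the same p as at 24 hpa. At both times the edgeR call held without any 1 of the 10 libraries. It also held without the libraries whose bmp4 stood above the controls, of which there were 2 at 24 hpa and none at 48 hpa (0.35, adjusted p = 0.0100, and 0.28, adjusted p = 0.00869, in that refit). The exact test at both times missed the threshold without any 1 control library (differences of 0.22 to 0.40, adjusted p = 0.0794) and kept it without any 1 bmp4 RNAi-labelled library. With 1 library fewer this test has fewer splits and unequal groups, so a lost call alone does not mark that library as decisive. Without control replicate 2 at 24 hpa, for example, the difference rose to 0.40 and the call was still lost.

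At 3 and 6 hpa the chat difference had a similar size, but its call rested on single libraries. At 3 hpa the control libraries held 88.4, 80.3, 111, 102 and 91.8 CPM, and those labelled bmp4 RNAi 117, 99.4, 109.9, 127 and 118 CPM. The ranges overlapped, with 3 of 5 bmp4 RNAi-labelled libraries above every control. The difference was 0.27 ± 0.083 on the log2 scale (adjusted p = 0.0212, edgeR, with 6.95% of transcripts called higher). It fell to between 0.21 and 0.26, with adjusted p from 0.0519 to 0.118, without control replicate 1, 2 or 5, or without replicate 1, 4 or 5 labelled bmp4 RNAi. Without the 4 libraries of this group whose bmp4 level stood above the controls, the lone remaining library gave 0.22 (adjusted p = 0.683), and it was assumed to vary like the other groups.

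At 6 hpa chat stood at 75.2, 82.6, 84.7, 85.6 and 73.2 CPM in controls. It stood at 90.9, 103, 78.3, 106 and 106 CPM in bmp4 RNAi-labelled libraries, where replicate 3 fell inside the control range and the other 4 lay above it. The difference was 0.27 ± 0.083 on the log2 scale (adjusted p = 0.0155, edgeR, with 9.67% of transcripts called higher). Leaving out control replicate 1 or 5, or replicate 4 or 5 labelled bmp4 RNAi, gave 0.23 to 0.25 with adjusted p from 0.0517 to 0.0612. The exact permutation test gave an adjusted p of 0.0794 at both 3 and 6 hpa, and of 0.0317 at 6 hpa without replicate 3 labelled bmp4 RNAi.

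At 0 and 16 hpa the chat difference was smaller and not called. Control libraries at 0 hpa held 87.0, 97.9, 79.2, 98.2 and 98.0 CPM. The bmp4 RNAi-labelled libraries held 106, 107, 97.9, 90.0 and 118 CPM, 3 of them above every control. The fitted difference was 0.18 ± 0.082 (adjusted p = 0.195, 6.45% of transcripts called higher). At 16 hpa control libraries held 82.0, 77.4, 72.5, 81.3 and 66.9 CPM, and those labelled bmp4 RNAi held 88.7, 82.2, 80.6, 97.5 and 88.0 CPM, where 4 of 5 lay above every control. That difference was 0.20 ± 0.083 (adjusted p = 0.0759, 9.68% called higher). No interaction of RNAi and time was called by edgeR for chat, with estimates from 0.026 (16 hpa) to 0.20 (24 hpa) and adjusted p of 0.507 or more, so the size of the difference was not shown to change over the times.

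**Figure D2:**
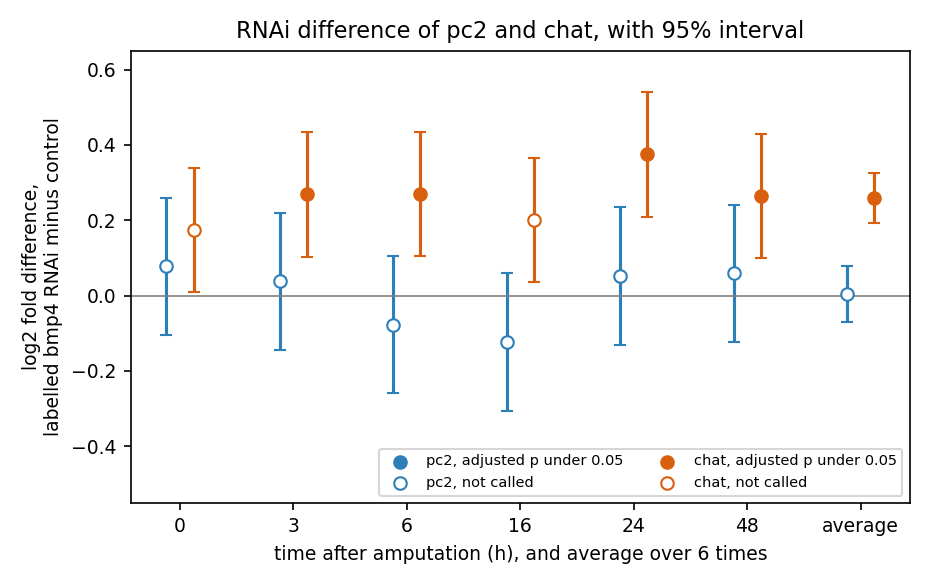
Log2 fold difference between bmp4 RNAi-labelled libraries and control at each time and averaged over the 6 times, for pc2 (blue) and chat (orange), with 95% intervals from the edgeR fit and filled points where the adjusted p was under 0.05. All 7 chat estimates lie above 0, and each pc2 interval includes 0.

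pc2 did not differ between conditions in the edgeR test at any time. At 0 hpa control libraries held 181, 201, 167, 209.9 and 207 CPM of pc2, and those labelled bmp4 RNAi held 196, 231, 191, 173 and 228 CPM. At 3 hpa the values were 212, 198, 262, 250.0 and 243 CPM in controls and 266, 193, 242, 238 and 255 CPM in bmp4 RNAi-labelled libraries. In both comparisons the lowest and the highest libraries of each condition lay close together, and the fitted differences were 0.078 (adjusted p = 0.722) and 0.038 (adjusted p = 0.881) on the log2 scale.

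At 6 hpa pc2 stood at 232, 238, 236, 246 and 226 CPM in controls, the tightest of the 12 groups. In bmp4 RNAi-labelled libraries it stood at 213, 246, 149, 260.2 and 251 CPM, the widest group, with replicate 3 the lowest of all 60 libraries. The difference was -0.077 (adjusted p = 0.630) with that library and 0.039 (adjusted p = 0.868) without it, so its direction rested on that pool. The same library had the lowest chat level of its group.

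At 16 hpa controls held 229.5, 221, 213, 232 and 212 CPM of pc2 and bmp4 RNAi-labelled libraries held 206, 196, 201, 215 and 197 CPM. Of the latter, 4 of 5 lay below every control. The difference was -0.12 ± 0.091 on the log2 scale (adjusted p = 0.348), and the exact permutation test gave p = 0.0238, or 0.0794 after adjustment. It was called (-0.12, adjusted p = 0.0321, edgeR) only with the leading within-group component, described below, as a covariate. That component was taken from these same libraries, pc2 included, so the call is no separate support.

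At 24 hpa pc2 held 242, 244, 250.1, 236 and 216 CPM in controls and 246, 260.5, 209, 245 and 271 CPM in bmp4 RNAi-labelled libraries. At 48 hpa the controls held 219.7, 218, 230.3, 183 and 226 CPM and the bmp4 RNAi-labelled libraries 215, 223, 239.8, 229 and 216 CPM. The ranges overlapped broadly, with fitted differences of 0.052 (adjusted p = 0.781) and 0.059 (adjusted p = 0.656). In order of time, the 95% intervals of the pc2 difference ended at 0.26, 0.22, 0.11, 0.059, 0.23 and 0.24. These upper ends lay below the chat estimate of the same time from 3 hpa on, and that of the average (0.079) lay below the chat average, but at 0 hpa a pc2 difference as large as that of chat was inside the interval.

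The same fit gave the changes after amputation within each condition, measured against the same 0 hpa libraries of that condition. In controls pc2 was 20.6% higher at 3 hpa (log2 0.27 ± 0.091, adjusted p = 0.0496, with 5.35% of transcripts called higher), 22.1% higher at 6 hpa (0.29 ± 0.091, adjusted p = 0.0137, 12.5% called) and 23.0% higher at 24 hpa (0.30 ± 0.091, adjusted p = 0.00781, 17.0% called). It stood at 0.20 (adjusted p = 0.0904) at 16 hpa and 0.16 (adjusted p = 0.164) at 48 hpa. The call at 3 hpa was lost without control replicate 1, 2 or 3 of 0 hpa or replicate 3, 4 or 5 of 3 hpa (0.22 to 0.29, adjusted p from 0.0599 to 0.168). The call at 6 hpa was lost without replicate 3 of 0 hpa (0.25, adjusted p = 0.0551).

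In bmp4 RNAi-labelled libraries pc2 was 20.8% higher at 24 hpa than at 0 hpa (0.27 ± 0.091, adjusted p = 0.0164, with 18.1% of transcripts called higher), and no other time was called. Without replicate 4 of 0 hpa this was 0.22 (adjusted p = 0.0805), and without replicate 5 of 24 hpa 0.24 (adjusted p = 0.0579). The estimate at 6 hpa was 0.13 (adjusted p = 0.387) with replicate 3 and 0.25 (adjusted p = 0.0253) without it, where 7.75% of transcripts were called higher with all libraries. The 3 hpa estimate was 0.23 (adjusted p = 0.0960), or 0.29 (adjusted p = 0.0264) without replicate 2, where 5.97% were. At 16 hpa the estimate was -0.0040 (adjusted p = 0.981). Interactions between RNAi and time for pc2 ranged from -0.20 (16 hpa) to -0.019 (48 hpa), all with adjusted p of 0.610 or more. Interactions were called for 0.0378% of all transcripts with 3 hpa, 0.313% with 6 hpa, 0.767% with 16 hpa, 1.91% with 24 hpa and 18.0% with 48 hpa.

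chat was lower, not higher, where its change after the cut was called. In controls it was lower at 16 hpa than at 0 hpa by 17.4% (log2 -0.28 ± 0.083, adjusted p = 0.00689, with 15.5% of transcripts called lower). In bmp4 RNAi-labelled libraries it was lower at 16 hpa by 16.0% (-0.25 ± 0.082, adjusted p = 0.0164, 13.5% called lower), a call lost without replicate 5 of 0 hpa (-0.20, adjusted p = 0.0720). At 6 hpa it stood at -0.20 (adjusted p = 0.0731) in controls, or -0.24 (adjusted p = 0.0367) without replicate 3 of 0 hpa (12.7% of transcripts called lower), and at -0.10 (adjusted p = 0.482) in bmp4 RNAi-labelled libraries. By 48 hpa it was at 0.063 (adjusted p = 0.581) and 0.15 (adjusted p = 0.169) relative to 0 hpa.

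Ordered by mean, the chat levels ran from bmp4 RNAi-labelled libraries at 48 hpa (116 ± 11.7 CPM, SD, n = 5), 24 hpa (115 ± 9.08) and 3 hpa (114 ± 10.2) down to controls at 6 hpa (80.3 ± 5.69) and 16 hpa (76.0 ± 6.34). The pc2 levels ran from bmp4 RNAi-labelled libraries at 24 hpa (246 ± 23.4 CPM) and 3 hpa (239 ± 28.2) down to those at 16 hpa (203 ± 7.70) and controls at 0 hpa (193 ± 18.7). For both transcripts the libraries of all 11 pairs of neighbours in the order overlapped, so the order describes the means only. Overlap of ranges is no test of a difference, and groups next to each other in a sorted order overlap easily. Within each condition, chat was lowest at 16 hpa, and the control order of pc2 began at 24 hpa and ended at 0 hpa.

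The ratio of pc2 to chat counts within a library needs no scaling between libraries and separated the groups more sharply than either level. In order of time, the log2 ratio in controls was 1.07 ± 0.023, 1.30 ± 0.064, 1.56 ± 0.068, 1.55 ± 0.069, 1.43 ± 0.048 and 1.16 ± 0.054 (SD, n = 5). It thus rose after the cut and came back near its starting value. In bmp4 RNAi-labelled libraries it was 0.97 ± 0.085, 1.06 ± 0.12, 1.19 ± 0.15, 1.22 ± 0.071, 1.10 ± 0.076 and 0.96 ± 0.14.

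**Figure D3:**
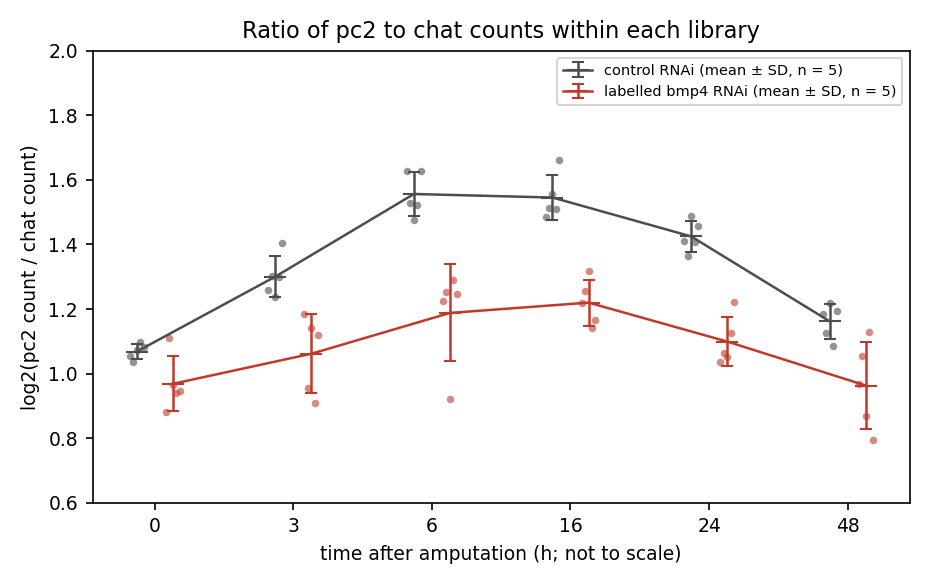
Log2 ratio of pc2 to chat counts in each library (points) with the mean ± SD of the 5 replicates at each time, for control RNAi (grey) and bmp4 RNAi-labelled libraries (red), on an axis that does not start at 0. The control mean goes from 1.07 at 0 hpa to 1.56 at 6 hpa and 1.16 at 48 hpa, and from 3 to 24 hpa each red point lies below each grey point of the same time.

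At each time the ratio was lower in the bmp4 RNAi-labelled libraries. At 3, 6, 16 and 24 hpa all 5 libraries lay below all 5 controls, with mean differences of -0.24, -0.37, -0.33 and -0.33 on the log2 scale (exact two-sided permutation test, p = 0.00794 each, the smallest possible, and 0.0119 adjusted over 6 tests). The share of other transcript pairs whose ratio separates the groups in this way was not counted. At 6 hpa the control libraries had log2 ratios of 1.48 to 1.63 and the others of 0.92 to 1.29, a ratio 1.29-fold lower. Without the libraries whose bmp4 stood above the controls the differences were -0.34 at both 16 and 24 hpa, 3 libraries against 5 (exact p = 0.0179, adjusted p = 0.0298 over 5 tests), and -0.16 at 3 hpa, where 1 library was left and the smallest possible p is 0.167. At 48 hpa the difference was -0.20 (exact p = 0.0238, adjusted p = 0.0286) and at 0 hpa -0.10 (exact p = 0.0476, adjusted p = 0.0476), with overlapping groups at both. These calls were lost at 48 hpa without control replicate 1, 3 or 5 (-0.19 to -0.18, adjusted p = 0.0556). At 0 hpa they were lost without any 1 library but replicate 2 labelled bmp4 RNAi (-0.11 to -0.078, adjusted p from 0.0556 to 0.0952). As for chat, the exact test has fewer splits and unequal groups with 1 library fewer.

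Against 0 hpa the control ratio was higher at 3, 6, 16 and 24 hpa by 0.23, 0.49, 0.48 and 0.36 on the log2 scale, without overlap (exact p = 0.00794, adjusted p = 0.0159 over 10 tests), and at 48 hpa by 0.094 (adjusted p = 0.0265). Here too the share of other transcript pairs without overlap was not counted. In bmp4 RNAi-labelled libraries it was higher at 16 hpa by 0.25 without overlap (adjusted p = 0.0159), at 6 hpa by 0.22 (adjusted p = 0.0496) and at 24 hpa by 0.13 (adjusted p = 0.0454). Leaving out 1 of 8 libraries (any but replicate 2 of 0 hpa and replicate 3 of 6 hpa) ended the call at 6 hpa (0.19 to 0.22, adjusted p from 0.0794 to 0.0992). Leaving out replicate 1, 3, 4 or 5 of 0 hpa or replicate 4 or 5 of 24 hpa ended the call at 24 hpa (0.10 to 0.13, adjusted p from 0.0595 to 0.0893). Fewer splits and unequal groups of the smaller exact test apply to both times. At 3 and 48 hpa the ratio in bmp4 RNAi-labelled libraries stood at 0.093 (adjusted p = 0.229) and -0.0052 (adjusted p = 0.984) relative to 0 hpa.

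The change of the ratio from 0 hpa in bmp4 RNAi-labelled libraries minus that in controls was, in order of the later times, -0.14, -0.27, -0.23, -0.23 and -0.099 on the log2 scale. An exact permutation test added after the ratios were seen, which shuffled the RNAi labels within times over all 63504 arrangements, gave adjusted p of 0.126 to 0.354 over 5 tests. Its shuffled values also contain the RNAi difference itself, so it does not answer whether the rise differed between conditions, and these values are given as a description.

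Among replicate pools of the same group, the 2 transcripts rose and fell together. With the group means removed, Pearson's r of their log2 CPM over the 60 libraries was 0.82 and Spearman's rho 0.79 (permutation within groups, p = 1e-05 for each, the smallest that 100000 permutations can give), the only relation between samples that was tested. Without the 2 libraries farthest from the median of pc2 (replicate 3 at 6 hpa and replicate 2 at 3 hpa, both labelled bmp4 RNAi), r was 0.80. It was 0.89 within the 30 control libraries and 0.80 within the 30 bmp4 RNAi-labelled libraries. Over the 60 libraries with the group means kept, r was 0.45.

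**Figure D4:**
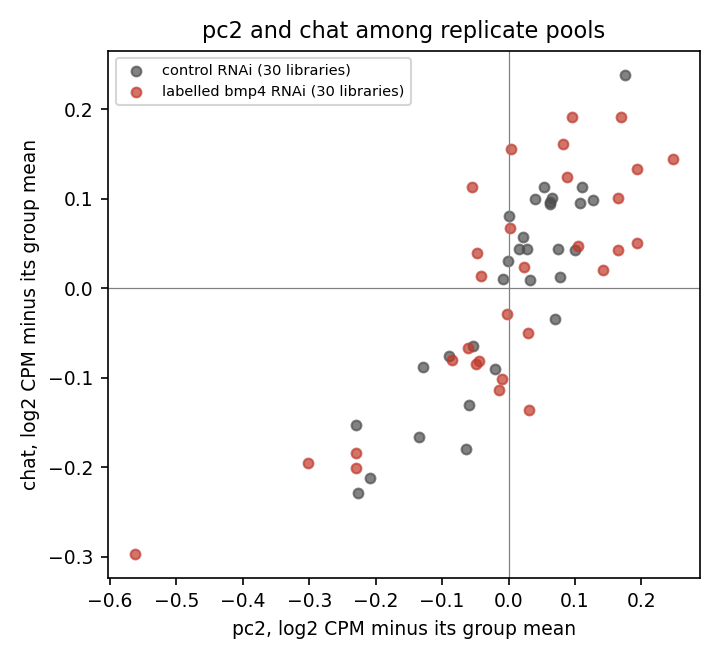
Deviation of chat from its group mean against that of pc2, both in log2 CPM, with 1 point per library and 30 libraries of each condition (grey, control RNAi, and red, labelled bmp4 RNAi). The points follow a rising line in both conditions (Pearson's r 0.89 and 0.80), and the lowest pc2 point is replicate 3 at 6 hpa labelled bmp4 RNAi.

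Both transcripts also followed the main axis along which replicate pools differed. The leading principal component of the within-group deviations of all tested transcripts, which held 12.5% of their variance, correlated with the deviation of pc2 at r = -0.89 and with that of chat at r = -0.74 over the 60 libraries. As a description, the deviation of the mitochondrial share had r of 0.30 and 0.26 with them. With that component as a covariate the chat difference was called at all 6 times, including 0 hpa (0.18, adjusted p = 0.0203, edgeR) and 16 hpa (0.20, adjusted p = 0.0042), and its average was 0.26. The component was taken from these same libraries, both markers included, with the group means removed. As a covariate it takes spread away and leaves the differences nearly unchanged, so the added calls are no separate support. What sets that axis was not tested.

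The transcripts most like each marker over the 60 libraries were different ones. For pc2 they were dd_Smed_v6_4770_0_1 (r = 0.89 of log2 CPM) and dd_Smed_v6_3648_0_1 (r = 0.88), neither of which is annotated in the sources used here. The first went from a mean of 44.3 CPM at 16 hpa to 66.7 CPM at 24 hpa, both in bmp4 RNAi-labelled libraries. Within groups they had r of 0.905 and 0.897 with pc2, and over the 12 group means 0.86 and 0.84. In all, 98 of the 18509 other transcripts had r above 0.8 with pc2, and 14 did with chat.

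For chat the closest was dd_Smed_v6_3135_0_1 (r = 0.91), also without annotation. The next, out of all 18509, was dd_Smed_v6_10192_0_1, whose best human match is SLC17A6, a vesicular transporter that loads glutamate into synaptic vesicles in mammals (r = 0.89). Over the 12 group means its r with chat was 0.98, against 0.65 within groups. Its mean level in controls went from 39.4 CPM (0 hpa) to 32.8 CPM (16 hpa) and 39.8 CPM (48 hpa), and in bmp4 RNAi-labelled libraries from 43.5 to 38.4 and 48.2 CPM. The average RNAi difference of this transcript was 0.25 ± 0.030 on the log2 scale (adjusted p = 1.3e-10, edgeR), beside 0.26 for chat. The transcript was picked by its likeness to chat with the group means kept, so a similar RNAi difference follows in part from that choice. Libraries are shared by all of these values, so the correlations describe likeness and carry no test.

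To place both markers beside other neural transcripts, 4 lists were drawn by the name of the best human match from the part of the study's annotation at hand: transmitter release and uptake, transmitter and neuropeptide receptors, voltage- and calcium-gated channels, and synaptic adhesion and axon guidance. Of their 39 transcripts, 29 had enough counts to be tested. On the average over the 6 times, 12 of these 29 were called higher in the bmp4 RNAi-labelled libraries and 10 were called lower, or 41.4% and 34.5%, where 22.1% and 21.5% of all transcripts were called. Over the 5 later times without the libraries whose bmp4 stood above the controls, 10 of the 29 were higher and 9 lower, where 15.1% and 14.6% of all transcripts were called. Over the 6 times and all libraries, their median difference was -0.0025 on the log2 scale, and that of all transcripts -0.0017. Neural transcripts as named here thus moved in both directions, and chat stood with those that were higher.

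**Figure D5:**
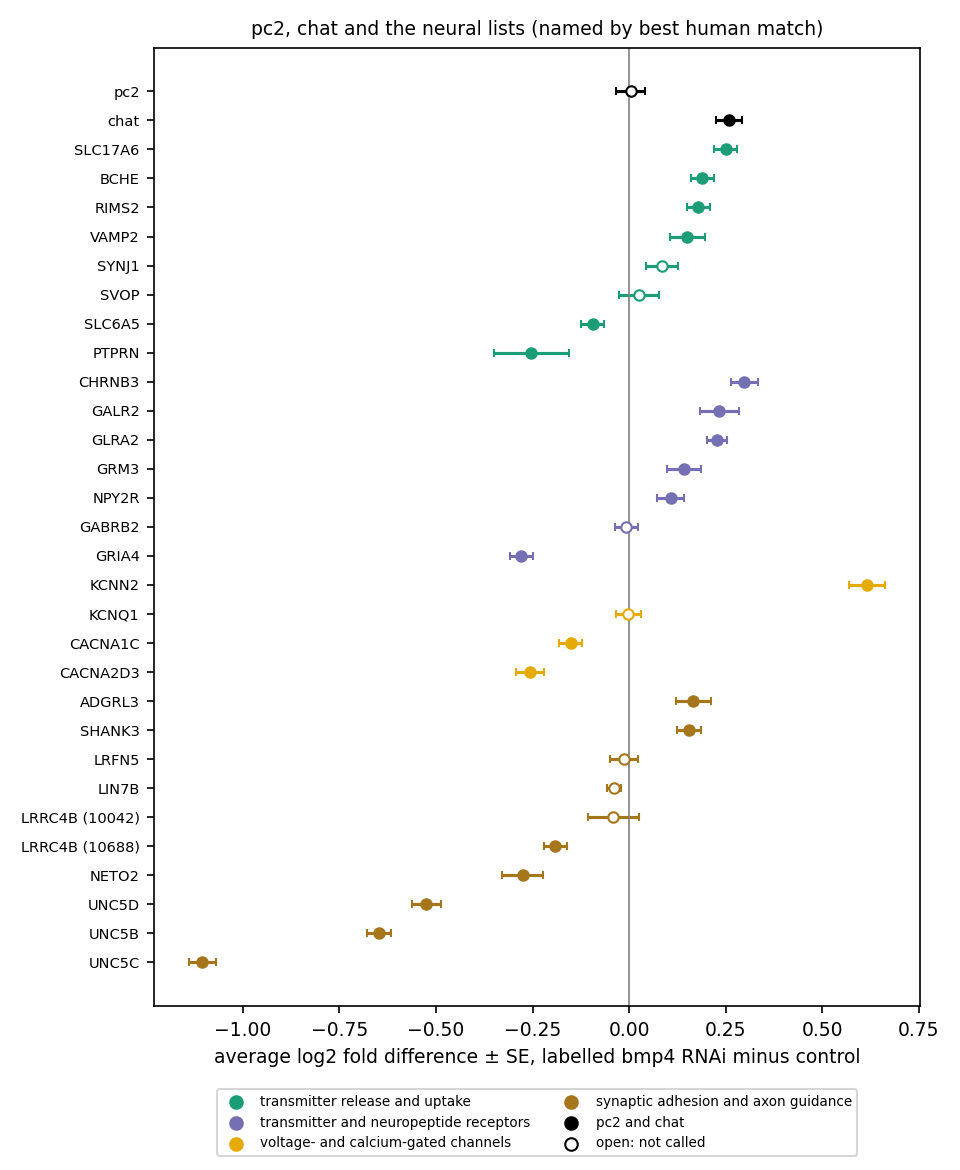
Average log2 fold difference ± SE between bmp4 RNAi-labelled libraries and control for pc2, chat (black) and the 29 tested transcripts of the 4 neural lists (colours), named by best human match, with open circles where the adjusted p was 0.05 or more. Matches of UNC5C, UNC5B and UNC5D lie farthest to the left (-1.10, -0.65 and -0.53) and the match of KCNN2 farthest to the right (0.62).

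On the average over the 6 times, 22.1% of all transcripts were called higher and 21.5% lower. By role, 4 of 8 tested transcripts for transmitter release and uptake were higher and 2 lower (median 0.12). Of 15 listed receptors 7 were tested, and 5 were higher and 1 lower (median 0.14). Of the 4 channels 1 was higher and 2 lower (median -0.077). Of 10 transcripts for synaptic adhesion and axon guidance 2 were higher and 5 lower (median -0.12). Those farthest from 0 were matches of KCNN2, a calcium-activated potassium channel (0.62 ± 0.048, adjusted p = 2.6e-17, edgeR), and of 3 netrin receptors of the UNC5 family, which steer growing axons in mammals: UNC5C (-1.10 ± 0.034, adjusted p = 5.0e-36), UNC5B (-0.65 ± 0.031, adjusted p = 1.0e-26) and UNC5D (-0.53 ± 0.038, adjusted p = 2.4e-18). The KCNN2 match went from 7.20 to 11.6 CPM at 0 hpa and from 6.59 to 12.7 CPM at 48 hpa, control against bmp4 RNAi-labelled libraries.

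At single times fewer were called. Among the 29, in order of time, 3, 5, 3, 9, 9 and 8 were called higher and 6, 3, 6, 4, 4 and 8 lower. The shares called lower among all transcripts were 4.95%, 4.32%, 7.43%, 9.56%, 6.5% and 18.6%. In percent of the 29, those higher were 10.3%, 17.2%, 10.3%, 31.0%, 31.0% and 27.6%, beside 6.45%, 6.95%, 9.67%, 9.68%, 10.2% and 17.3% of all transcripts, so the share at 6 hpa was close to that of all transcripts.

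A further pair of list members concerns acetylcholine itself and was singled out after their values were seen. The match of BCHE, which in mammals breaks down choline esters, was higher by 0.19 ± 0.030 on average (adjusted p = 4.0e-07, edgeR). The match of CHRNB3, a subunit of nicotinic acetylcholine receptors, was higher by 0.30 ± 0.035 (adjusted p = 9.8e-11). On this average 12 of the 29 tested list members were called higher and 10 lower, beside 22.1% and 21.5% of all transcripts. Whether transcripts tied to acetylcholine differed as a set was not tested. Among the list members most like chat, the KCNN2 match had r = 0.56 over the 60 libraries and the match of GALR2, a neuropeptide receptor, 0.56 as well, and the latter was higher by 0.23 ± 0.050 on average (adjusted p = 1.0e-04). Both were picked here by likeness to chat with the group means kept, so a difference in the same direction is no separate support.

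List members most like pc2 were less close. They matched CACNA1C, the pore subunit of a voltage-gated calcium channel (r = 0.46), KCNQ1, a voltage-gated potassium channel (r = 0.45), and LIN7B, a scaffold of synaptic junctions (r = 0.37). Their average differences were -0.15 ± 0.030 (adjusted p = 3.0e-05), -0.0025 ± 0.032 (adjusted p = 0.960) and -0.039 ± 0.019 (adjusted p = 0.0865). The median r of the 29 transcripts was 0.11 with pc2 and -0.16 with chat, against -0.014 and -0.0028 for all transcripts.

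Markers of other cells moved between the conditions alongside chat. Of a list of 11 transcripts of ciliated cells, 8 were tested and 7 were higher on average, none lower (median 0.42), beside 22.1% and 21.5% of all transcripts. Their summed level ranged over 184 to 260.2 CPM among the 30 controls and over 240.1 to 354 CPM among those labelled bmp4 RNAi, without overlap at any of the 6 times. Of 7 muscle transcripts 6 were tested, and on average 1 was higher and 3 lower. These did not move alike at all times. At 0 hpa 5 of 6 were lower and none higher (median -0.54), beside 4.95% and 6.45% of all transcripts. At 48 hpa 3 were higher and 1 lower (median 0.28), beside 17.3% and 18.6%. At 48 hpa 4 also had a called positive interaction, where 18.0% of all transcripts had an interaction in either direction. The muscle sum was 2270 to 4100 CPM in controls and 1474 to 3619 in bmp4 RNAi-labelled libraries, apart at 5 of 6 times. Unlike the median of the single transcripts, its mean was still lower in the latter at 48 hpa (2602 against 2917 CPM, ranges overlapping). By the same count, the neural sums for transmitter release and uptake were apart at 2 of 6 times (higher in bmp4 RNAi-labelled libraries). Those for receptors were apart at 0 (ratio of means 0.98 to 1.09). Those for channels were apart at 1 (lower), and those for synaptic adhesion and axon guidance at 5 (lower). How often sums of transcripts outside these lists lie apart was not counted. Of 10 transcripts of dividing cells 6 were tested, and 4 were lower and none higher both on average and at 48 hpa, where 21.5% and 18.6% of all transcripts were called lower. Their sums were 100.1 to 158 CPM in controls and 97.4 to 141 CPM in bmp4 RNAi-labelled libraries, apart at 2 of 6 times (lower). No listed marker was at 0 in all libraries. The part of these shifts in the chat difference was not tested.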

How the data were processed

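Per the labels and the study's methods, the authors mapped reads to the dd_Smed_v6 transcriptome with bowtie (best alignment), counted reads per contig with coverageBed and summed contigs of the same isotig. The deposited values are raw counts of 28742 transcripts in 60 libraries. Strand use and multiply matching reads are not given in the sources used here, so counts of near-identical or antisense transcripts are uncertain.

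edgeR 4.0.16 in R 4.3.3 fitted all 60 libraries (12 group means, TMM, robust quasi-likelihood) to the 18510 transcripts kept by filterByExpr (minimum count 10, total 15), which held 99.91% of counts. Tests were two-sided with Benjamini-Hochberg adjustment per contrast, replacing the study's DESeq. log2 CPM used a prior count of 2. The fit was tested on simulated counts. The closest pair of replicates had a chi-square of 3.21 per degree of freedom, so none was a repeat. Counting error was at most 2.65% for pc2 and 3.63% for chat.

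Named transcripts were both markers, bmp4, the 2 most correlated with each marker, and from the neural lists the 3 most like each marker and the 4 largest average differences among those called. The BCHE and CHRNB3 matches fall outside this rule and were named after their values were seen. Members and lists were chosen with earlier results of these data known. Alternatives were library totals, DESeq2 1.42.0, no filter, the 10 libraries compared, a replicate block, a within-group component, other pseudocounts (0.1 CPM, 0.5 counts), and leaving out libraries. No sequence was used.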

Additional observations from a re-analysis of the deposited data

Results flagged for a closer look

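Among 36 groups of 5 values (pc2, chat and their ratio in 12 groups), 3 had a lowest library far from the other 4, where chance gives about 5% of groups. In control libraries at 48 hpa replicate 4 was lowest for both transcripts, with 183 CPM of pc2 against 218 to 230.3 in the others and 86.3 CPM of chat against 96.6 to 99.9. In libraries labelled bmp4 RNAi at 6 hpa replicate 3 had a log2 pc2 to chat ratio of 0.92 against 1.23 to 1.29 in the others.

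The change from 0 hpa differed between conditions for 2 named transcripts of the neural lists, by the interaction term of the edgeR fit. The UNC5D match (dd_Smed_v6_10585_0_1) rose more by 0.54 on the log2 scale at 16 hpa in libraries labelled bmp4 RNAi (adjusted p = 0.0267). That call was lost without any 1 of 9 of the 20 libraries: control replicates 1 and 3 of 0 hpa and 1 and 4 of 16 hpa, and replicates 2, 3 and 5 of 0 hpa and 2 and 5 of 16 hpa labelled bmp4 RNAi (0.47 to 0.54, adjusted p from 0.0505 to 0.103). The UNC5C match (dd_Smed_v6_10730_0_1) differed by -0.39 at 48 hpa (adjusted p = 0.0166), a call that held without any 1 of the 20 libraries.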

How the results depend on the processing

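The average chat difference kept its direction and its call under every alternative run and without any 1 library (0.25 to 0.29 on the log2 scale), as did the edgeR calls at 24 hpa (0.34 to 0.42) and 48 hpa (0.22 to 0.30). The ratio difference from 3 to 24 hpa kept its call with the other pseudocount and without any 1 library. The average pc2 difference was called under none, and it was -0.0063 with DESeq2. The cause of the changes listed here was not tested.

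Most changes came from 2 settings. With library totals in place of TMM, which moved the median of all transcripts by up to 0.14 (log2, controls, 48 against 0 hpa) and by 0.032 in the average RNAi difference, pc2 against 0 hpa became called in controls at 16 hpa (0.22) and 48 hpa (0.30) and in libraries labelled bmp4 RNAi at 3 hpa (0.28) and 48 hpa (0.25). It turned to 0.065 in the latter at 16 hpa, and the pc2 interaction at 3 hpa turned to 0.021. For chat, calls appeared for the RNAi difference at 16 hpa (0.26), for controls at 6 hpa (-0.21) and 48 hpa (0.20), for libraries labelled bmp4 RNAi at 24 hpa (0.18) and 48 hpa (0.26), and in the exact tests at 0, 3, 6 and 16 hpa (0.18, 0.35, 0.31 and 0.26), while the fall at 16 hpa in libraries labelled bmp4 RNAi lost its call (-0.18). The KCNQ1 match turned to 0.029. With the within-group component as a covariate, calls appeared for pc2 between conditions at 16 hpa (-0.12), against 0 hpa in controls at 16 hpa (0.20) and 48 hpa (0.16), and in libraries labelled bmp4 RNAi at 3 hpa (0.23) and 48 hpa (0.15), whose 16 hpa value turned to 0.0048. For chat they appeared between conditions at 0 hpa (0.18) and 16 hpa (0.20), in controls at 6 hpa (-0.19), and in libraries labelled bmp4 RNAi at 24 hpa (0.15) and 48 hpa (0.15). The component was taken from these same libraries and takes spread away, so calls gained with it are no separate support.

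The rise of pc2 in controls at 3 hpa lost its call with DESeq2 (0.26), with no filter (0.26), with the 10 libraries compared alone (0.27) and with a replicate block (0.27, adjusted p = 0.0520). With the 10 libraries alone, pc2 in controls at 16 hpa became called (0.20), pc2 at 24 hpa in libraries labelled bmp4 RNAi lost its call (0.26), as did chat between conditions at 6 hpa (0.26), and chat at 16 hpa became called (0.20). Without the libraries whose bmp4 stood above the controls, chat at 3 hpa lost its call (0.22), as did the ratio at 3 hpa (-0.16, an alternative added after the data were seen, like the average over the later times), and no library was left for 0 hpa. Neural transcripts called higher were 5 at 0 hpa with the component and 3 at 3 hpa with no filter or the 10 libraries. At 6 hpa they were 6 with library totals, 7 with the component and 1 with the 10 libraries. Those called lower at 3 hpa were 5 with the component. The shares of all transcripts called under these settings are not given here, so the counts are not read as particular to neural transcripts.

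Same-numbered libraries of different groups at one time had deviations correlated at -0.210 to 0.313, with 4 of 30 pairs above 0.1, so the numbers did not pair them; the block changed 1 of 71 results.

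Leaving out 1 library at a time, pc2 between conditions ranged over -0.019 to 0.10 at 3 hpa (exact test, -0.020 to 0.11) and -0.14 to 0.039 at 6 hpa (exact test, -0.17 to 0.036), and on average over -0.0059 to 0.024. Against 0 hpa pc2 ranged in controls over 0.22 to 0.33 at 3 hpa and 0.25 to 0.33 at 6 hpa, and in libraries labelled bmp4 RNAi over 0.17 to 0.29 at 3 hpa, 0.076 to 0.25 at 6 hpa, -0.062 to 0.042 at 16 hpa and 0.22 to 0.33 at 24 hpa. The pc2 interactions ranged over -0.10 to 0.021 at 3 hpa, -0.083 to 0.025 at 24 hpa and -0.076 to 0.028 at 48 hpa. For chat between conditions the ranges were 0.21 to 0.33 at 3 hpa, 0.23 to 0.34 at 6 hpa, and in the exact tests 0.23 to 0.33 at 6 hpa, 0.33 to 0.42 at 24 hpa and 0.21 to 0.29 at 48 hpa. Against 0 hpa chat ranged in controls over -0.020 to 0.097 at 3 hpa and -0.24 to -0.16 at 6 hpa, and in libraries labelled bmp4 RNAi over -0.30 to -0.20 at 16 hpa, with an interaction at 16 hpa of -0.029 to 0.068. The log2 ratio ranged between conditions over -0.14 to -0.078 at 0 hpa and -0.24 to -0.16 at 48 hpa, and against 0 hpa in libraries labelled bmp4 RNAi over 0.19 to 0.29 at 6 hpa, 0.10 to 0.17 at 24 hpa and -0.047 to 0.037 at 48 hpa. The average of the KCNQ1 match ranged over -0.012 to 0.010.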
